A study of Caenorhabditis elegans with 2 samples.

Results

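Muscle sarcomere and attachment genes were examined for peaks of the transcription factor HLH-26 in whole Caenorhabditis elegans. The set is a fixed list of 39 genes that act in body wall and pharyngeal muscle, out of 19973 nuclear protein-coding genes in the annotation, and all 39 names were found there. The rule takes members by name and uses no peak value. Peaks came from chromatin immunoprecipitation and sequencing (ChIP-seq) with an antibody against GFP. The 2 samples are biological replicates of a single group: strain RW12174, in which CRISPR placed GFP with a loxP-flanked unc-119(+) marker at hlh-26 (allele st12174), in an unc-119(tm4063) III background. Animals were young adults of 66 hours, synchronised by L1 starvation after bleaching, and the fusion and the unc-119 allele are shared by both replicates. No second condition and no untagged group is part of the design analysed here. The labels give no further detail on the source of either replicate. Chromatin of all tissues was pooled in each sample, so peaks at muscle genes cannot be assigned to muscle nuclei, and few cells with strong occupancy cannot be told apart from many with weak occupancy.

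A sarcomere is built from thick filaments of myosin and paramyosin and thin filaments of actin, tropomyosin and troponin. In the worm's body wall, thin filaments are held at dense bodies and thick filaments at M-lines, and both structures are tied through integrins to the perlecan-containing matrix under the muscle. Calcium let in at the plasma membrane and released from the sarcoplasmic reticulum starts contraction. HLH-26 belongs to the REF-1 family of nematodes, whose members carry paired basic helix-loop-helix (bHLH) domains.

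The 4 ranked peak lists held 35301 peaks (the series list that holds every peak of the conservative thresholded list, called the list of both replicates and used unless stated), 35468 (another list of the series), 19393 (replicate 1) and 24293 (replicate 2). The lists come from the same 2 samples, so they are not independent. Every ranked peak carries an irreproducible discovery rate (IDR), which is low when a peak has a high rank in both lists compared, and a signal, the peak caller's own enrichment value, whose scale is not given and which is compared only within a list. A ranked list is permissive: 0.416% of protein-coding genes had a peak past the authors' threshold in the list of both replicates, whereas 61.0% had a ranked one. Depth behind single peaks is unknown, because peak lists carry no read counts.

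A gene was given every ranked peak that overlapped it or the 1000 bp upstream by at least 1 bp. In the list of both replicates, 36 of the 39 members had a peak (92.3%) against 61.0% of all protein-coding genes. The corresponding counts were 38 of 39 in the other series list (60.7% of all genes), 32 in replicate 1 (45.8%) and 35 in replicate 2 (51.5%). Muscle genes are longer than most, with a median of 5219 bp against 2027 bp, and longer genes collect more peaks. Each member was therefore set against all other protein-coding genes within 20% of its length. Among the members, 30 of 39 had more ranked peaks than the median of their like-length genes (76.9%), against 41.9% of all protein-coding genes treated the same way and 41.1% of the like-length genes themselves. Of the rest, 3 equalled that median (unc-15, unc-95 and unc-98) and 6 fell below it (unc-87, act-1, tni-3, pat-2, pat-3 and unc-68). The same count was 29 of 39 in the other series list (40.9% of all genes), 28 in replicate 1 (39%) and 32 in replicate 2 (40.4%). In all 4 lists at once, 21 members stood above their like-length median, as did 17.8% of all protein-coding genes.

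**Figure D1:**
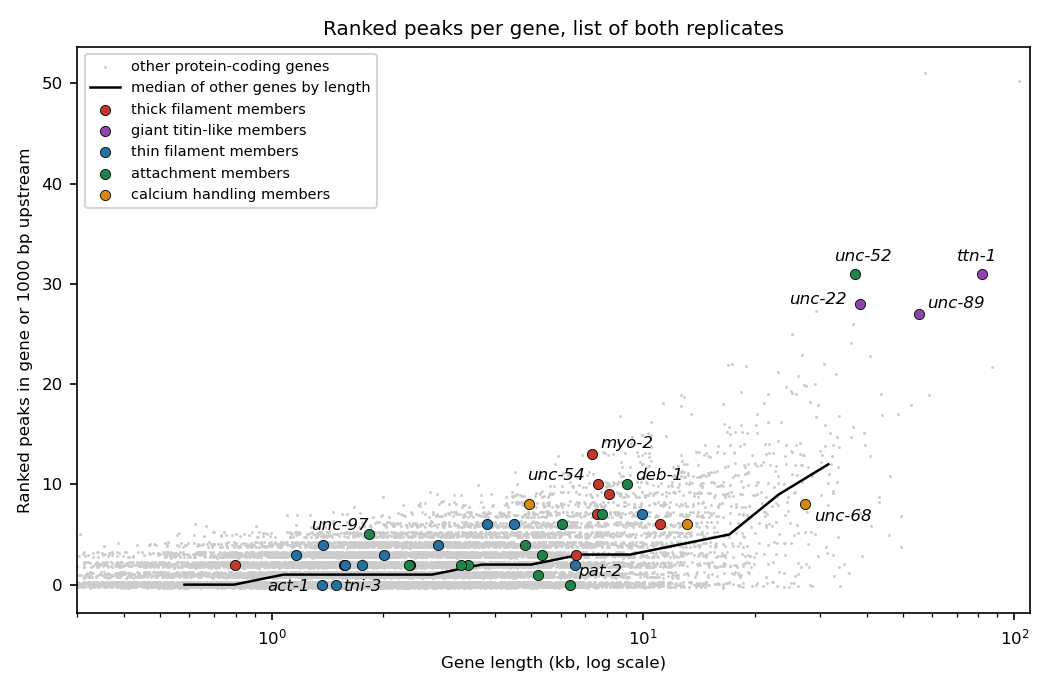
Ranked peaks per gene (vertical axis) by gene length in kb (log axis) in the list of both replicates. Grey points are other protein-coding genes, spread slightly in height, the line is their median by length, and coloured points are the 39 members by role. Of the members, 30 have more peaks than the median of like-length genes, from 2 at mlc-2 to 31 at unc-52 and ttn-1, while act-1, tni-3 and pat-2 have 0.

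Peak density was higher as well. The median member had 0.725 ranked peaks per kb of gene plus upstream window, against 0.338 for all protein-coding genes, many of which have no peak. Pooled over all bases of the windows, the densities were 0.618 and 0.435 per kb. In replicate 1 these medians were 0.395 and 0, and in replicate 2 they were 0.471 and 0.127. Many ranked peaks overlap one another, since neighbouring calls of 524 bp are listed separately. Merging them left 142 regions of the 274 member peaks, a median of 0.366 regions per kb against 0.241, and 23 of 39 members above their like-length median against 31.4% of all genes. Base composition also differed: the median GC content of the gene windows was 39.8% for members and 35.7% for all protein-coding genes. Against genes alike in both length and GC content (within 2 percentage points, an alternative added after seeing the data), 24 of 39 members were above the median, against 39.3% of all genes. One member, ttn-1, had no gene to compare with there and is not counted as above. Few genes were alike in both for unc-89 (2), unc-22 and unc-52 (6 each) and unc-54 (7), which are counted as above. lev-11, mlc-1, mlc-2, mlc-3, tnt-2 and mup-2 were above the median by length alone and not with GC content, and for unc-98 it was the reverse.

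Member peaks had high IDRs, as ranked peaks did in general. No member had a peak past the authors' threshold in any of the 4 thresholded lists, whose shares over all protein-coding genes were 0.416%, 0.345%, 0.0401% and 0.0651%, so that 0 of 39 is near the background. A score of 540 or more, equal to an IDR of at most 5.01%, was reached at 3 members in the list of both replicates (7.69% against 1.4% of all genes), at 1, unc-45, in the other series list (1.22%) and at 0 in either replicate alone (0.2% and 0.35%). The median IDR of the 274 member peaks was 69.9%, against 72.5% for all nuclear ranked peaks, and their median signal was 26.8 against 25.95. At the lowest score of the list stood 106 of the member peaks (38.7%, against 45.3% of nuclear ranked peaks). In the top 1000 by signal stood 10 of the 274 (3.65% against 2.79%). By gene, the strongest peak had a median signal of 46.8 over the members with a peak and 35.5 over all protein-coding genes with one. By the signal of the strongest peak, the median of all 39 members stood at the 76.6 percentile of like-length genes. Over all protein-coding genes that median was 49.3. Genes without a peak entered this percentile with a signal of 0, so it reflects having a peak as well as its strength. The number of peaks was not matched.

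The strongest peaks at members lay past the 3′ end of unc-45, in myo-2 and in lev-11, the only ones of the 274 with a score of 540 or more. At unc-45, which encodes a myosin chaperone, the peak (III, 502521 to 503044) had a signal of 71.3, rank 251 of 35301 and an IDR of 3.27%. Its summit lay 158 bp past the end of unc-45 (III, 491547 to 502625) and 21 bp before the start of F30H5.4, a snoRNA gene (III, 502804 to 502889). The peak thus met the rule by its edge only. It is in the other series list with the same signal and an IDR of 4.07%, replicate 2 had a peak past the gene end with a signal of 32.8, and replicate 1 had none in the unc-45 window. Of the 274 member peaks, 2 came within 200 bp of a structural RNA gene (tRNA, rRNA, snRNA or snoRNA), this one and a weaker one in unc-22.

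At myo-2, which encodes a myosin heavy chain of the pharynx, the peak (X, 12469719 to 12470242) had its summit in a coding exon 1920 bp after the gene start, with a signal of 70.2, rank 286 and an IDR of 4.44%. The strongest myo-2 peaks of the replicates' own lists had signals of 39.8 and 31.6. Their summits were also in coding exons, which make up 80.1% of this gene. At lev-11, the tropomyosin gene, the summit lay in a coding exon 8069 bp after the gene start with a signal of 69.8, rank 296 and an IDR of 3.09%. The strongest lev-11 peaks of the replicates had signals of 39.99, in a coding exon, and 31.9, in an intron. For myo-2 and lev-11, whether these replicate peaks lay at the same site as the peak above was not compared. No other member peak reached a score of 540. The next in signal were a peak in an intron of unc-22 (63.97, IDR 12.139%), one in an intron of unc-68 (63.4, IDR 6.23%) and one in a coding exon of unc-15 (63.4, IDR 19.4%).

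Sequence at 4 summits is shown because they rank 1, 2, 4 and 5 by signal among the member peaks. The third, at lev-11, is not printed here, and hexamers played no part in the choice. Each run holds the summit and 50 bases on either side, from the RefSeq WBcel235 genome, on the strand of the gene, with capitals marking any of 6 bHLH hexamers on either strand. The windows lie at chrIII:502733-502833 (plus strand), chrX:12469931-12470031 (plus strand), chrIV:12010607-12010707 (minus strand) and chrV:6914341-6914441 (minus strand).
unc-45: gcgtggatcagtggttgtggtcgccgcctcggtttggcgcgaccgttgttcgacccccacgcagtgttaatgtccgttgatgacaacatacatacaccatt
myo-2: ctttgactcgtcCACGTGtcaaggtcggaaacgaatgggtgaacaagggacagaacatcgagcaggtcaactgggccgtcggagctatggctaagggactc
unc-22: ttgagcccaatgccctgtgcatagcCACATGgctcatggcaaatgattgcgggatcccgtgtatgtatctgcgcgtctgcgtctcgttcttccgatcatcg
unc-68: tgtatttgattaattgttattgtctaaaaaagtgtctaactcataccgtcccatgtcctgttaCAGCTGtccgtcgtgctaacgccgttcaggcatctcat
The unc-45 window held none of the hexamers, while myo-2 held CACGTG, unc-22 CATGTG (read on its other strand) and unc-68 CAGCTG. Over all 274 member windows, CACNAG was found in 12.04% (exact 95% interval 8.44 to 16.5%) against 13.2% of all ranked windows, CACGTG in 3.65% (1.76 to 6.61%) against 2.42%, and CATGTG in 3.28% against 3.72%. CACGCG stood at 2.55% against 1.92%, CATGCG at 2.19% against 2.16% and CAGCTG at 2.55% against 2.76%. For each of the 6 hexamers the interval over member windows included the share over all ranked windows, which contain the member windows. The intervals treat overlapping peaks as independent and are wide, so equal shares are not shown.

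Thick filament genes had a peak in 9 of 9 cases (61.0% of all protein-coding genes), and 8 of 9 exceeded their like-length median (41.9%). The myosin heavy chain genes carried most of the thick filament peaks. myo-2 (X, 12468061 to 12475348) had 13 ranked peaks against a like-length median of 3, with 14 in the other series list and 8 in each replicate, and 12 of the 13 summits were in coding exons. No other thick filament gene had as many. unc-54 (I, 14855901 to 14863482), the main myosin heavy chain gene of the body wall, had 10 peaks, with 5 in replicate 1 and 9 in replicate 2, and its strongest had a signal of 43.0 at rank 4254. For myo-1 (I, 7258946 to 7267057), another pharyngeal heavy chain gene, the counts were 9, 4 and 6, and for myo-3 (V, 12226817 to 12234343), the second body wall heavy chain gene, 7, 4 and 5. All 4 heavy chain genes were thus above their like-length median of 3 in the list of both replicates. Against genes alike in both length and GC content the medians were higher: 9 for unc-54 (over 7 genes), 7 for myo-1, 7.5 for myo-2 and 6.5 for myo-3. Merged into regions, myo-2 kept 5, unc-54 kept 4, myo-1 kept 6 and myo-3 kept 4, against a like-length median of 2. The strongest myo-3 peak had a signal of 56.9 but an IDR of 71.4%, and the strongest myo-3 peaks of the replicates had signals of 26.03 and 34.05.

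unc-15 (I, 7376604 to 7383197), which encodes paramyosin of the filament core, had 3 peaks, equal to its like-length median and under the 6 of genes alike in GC content too. The other series list had 4, replicate 1 had 3 (strongest signal 31.6) and replicate 2 had 8 (strongest signal 28.7), so the replicates differed. Besides the coding exon peak named above, a second peak had its summit 124 bp upstream of the gene with a signal of 55.8 and an IDR of 28.5%. The myosin light chain genes mlc-1, mlc-2 and mlc-3 (an essential light chain) had 2 peaks each. mlc-1 and mlc-2 encode regulatory light chains, lie head to head on X and share 96.7% of 510 coding bases. mlc-1 had 2, 3 and 1 peaks in the other series list, replicate 1 and replicate 2 (strongest signals 34.7, 22.9 and 15.8), and mlc-2 had 2, 1 and 1 (29.6, 20.5 and 18.04). Their strongest summits lay 35 bp and 27 bp upstream of the gene starts, with signals of 34.7 and 29.6 and IDRs of 55.9% and 53.8%. Reads from such copies may be placed on either gene, and the sources used here do not say how the authors placed them. unc-45 had 6 peaks against a like-length median of 3, with 3 in the other series list, 0 in replicate 1 and 4 in replicate 2. Apart from the peak past the gene end, its strongest had a signal of 37.1 and lay in a coding exon.

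The giant titin-like genes carried 86 of the 274 peaks. unc-22 (IV, 11972697 to 12011007), which encodes the kinase twitchin, had 28 ranked peaks against a median of 12 over 45 genes of like length, with 29 in the other series list, 14 in replicate 1 (strongest signal 26.1) and 28 in replicate 2 (strongest signal 36.9). Its strongest summit lay in an intron 350 bp after the gene start, inside ZK617.23, an ncRNA gene on the opposite strand (IV, 12010399 to 12010681). unc-89 (I, 4035702 to 4090885), an M-line protein gene related to obscurin, had 27 peaks, with 17 in the other series list and 20 in each replicate (strongest signals 37.7 and 40.7). ttn-1 (V, 6120909 to 6202632), a titin-like gene, had 31, with 35 in the other series list, 11 in replicate 1 (strongest signal 27.2) and 16 in replicate 2 (strongest signal 32.7). In the other series list unc-89 fell below its like-length median of 18, and in replicate 1 ttn-1 fell below the 12 peaks of its 1 like-length gene. Few genes reach these lengths: unc-89 had 8 others to compare with (median 14) and ttn-1 had 1 (22 peaks). In all 3 the share of summits in coding exons was above the share of bases: 71.4% of summits against 56.0% of bases in unc-22, 70.4% against 43.4% in unc-89, and 80.6% against 66.97% in ttn-1. In unc-89 the strongest peak (signal 60.1, IDR 7.88%) lay in a coding exon, and in ttn-1 (signal 47.2, IDR 73.7%) in an intron where the potassium channel gene exp-2 is also annotated. Summits nearer the start and nearer the end of the gene numbered 13 and 13 in unc-22, 10 and 17 in unc-89, and 12 and 18 in ttn-1.

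**Figure D2:**
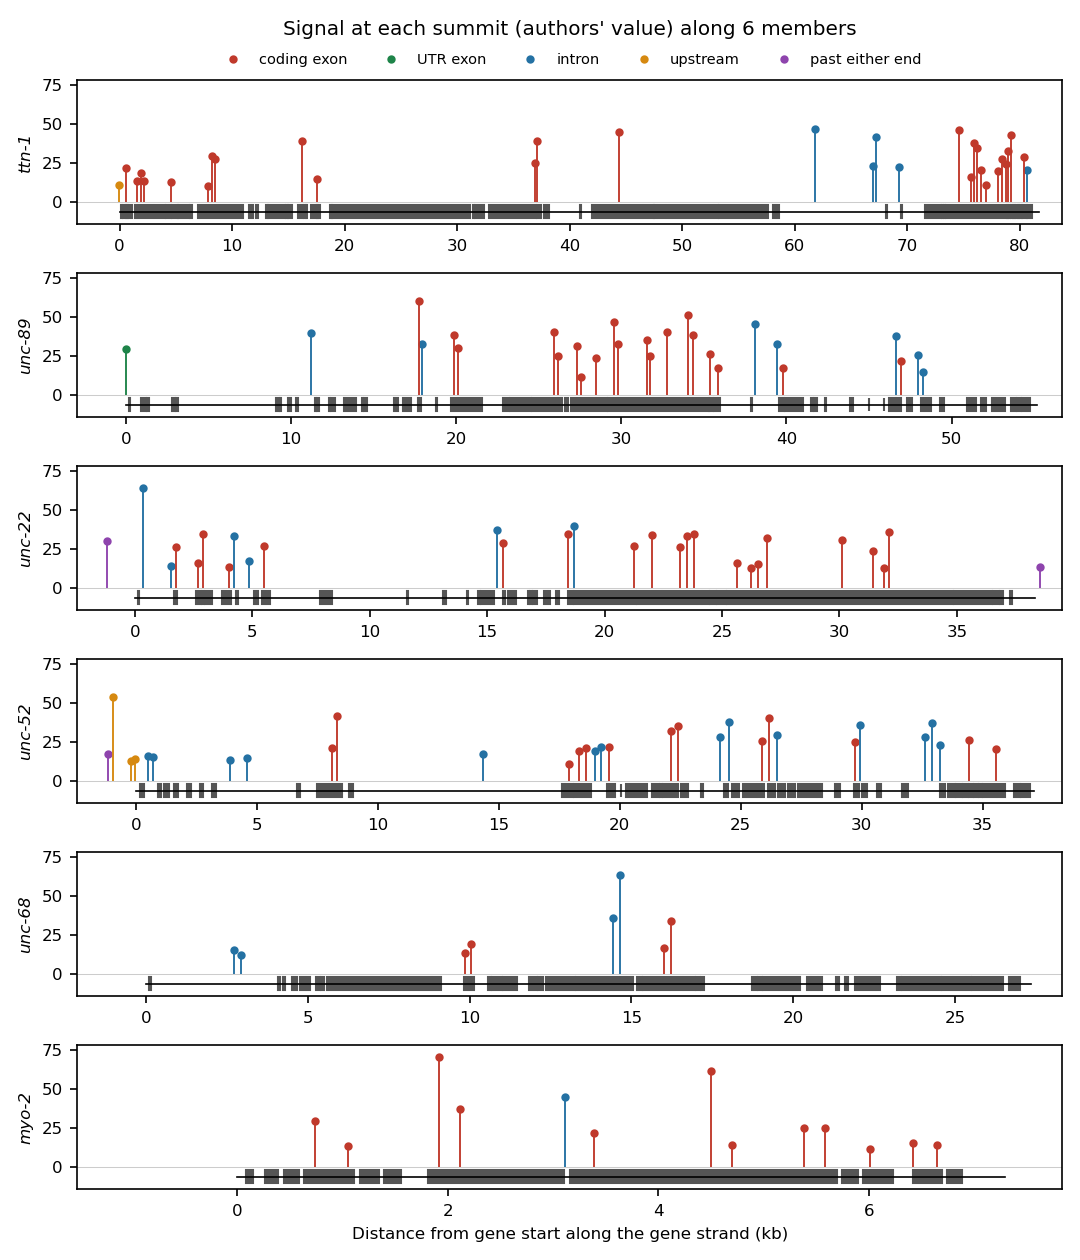
Signal of each ranked peak (vertical axis, authors' value, list of both replicates) by distance of its summit from the gene start in kb along the gene strand. Grey boxes are coding exons, and colours give the feature under the summit for ttn-1, unc-89, unc-22, unc-52, unc-68 and myo-2. The tallest lines are in a coding exon of myo-2 (70.2) and in introns of unc-22 (63.97) and unc-68 (63.4).

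Thin filament genes were mixed, with a peak in 10 of 12 (61.0% of all protein-coding genes) and 9 of 12 above their like-length median (41.9%). The 4 muscle actin genes differed although their coding sequences are alike. act-1 (V, 11081052 to 11082415) had 0 peaks in the list of both replicates, 1 in the other series list (signal 31.1), 0 in replicate 1 and 3 in replicate 2 (strongest signal 21.7). act-3 (V, 11071690 to 11074498), with the same 1128 coding bases as act-1 (100% identical), had 4 peaks, all upstream or intronic, with 4 in the other series list (strongest signal 30.6 in both) and 1 in each replicate (signals 25.2 and 27.2). act-2 (V, 11076777 to 11078154), 96.2% identical to act-1, had 4, with 4 in the other series list, 2 in replicate 1 (strongest signal 13.5) and 4 in replicate 2 (strongest signal 32.7). act-4 (X, 4960621 to 4964413), 94.1% identical to act-1, had 6, with 6 in the other series list, 5 in replicate 1 (strongest signal 28.4) and 6 in replicate 2 (strongest signal 22.7). Genes alike in both length and GC content had medians of 2 for act-1 and act-2, 3 for act-3 and 5 for act-4. Of the 14 actin peaks, 2 had a summit in a coding exon, both in act-4. The strongest, beside act-2 (signal 59.9, IDR 11.9%), had its summit 152 bp past the 3′ end of that gene, inside the ncRNA gene T04C12.14 (V, 11076485 to 11076666). Whether reads could be placed within the identical stretches was not tested.

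Of the 5 troponin genes, which are short, 4 had more peaks than their like-length median of 1 and tni-3 had fewer. tni-3 (V, 16833638 to 16835128), a troponin I gene, had 0 in the list of both replicates and in each replicate alone, and 2 in the other series list (strongest signal 34.1). unc-27, another troponin I gene, had 3, led by a summit 365 bp upstream (signal 50.4, IDR 65.5%). The troponin T genes tnt-2 and mup-2 had 3 and 2, where genes alike in length and GC content had a median of 3. The replicates disagreed: tnt-2 had 3 peaks in replicate 1 and 0 in replicate 2, whereas mup-2 had 1 and 3. pat-10, the body wall troponin C gene, had 2 peaks in the list of both replicates, 0 in the other series list, 0 in replicate 1 and 1 in replicate 2. lev-11 (I, 14621169 to 14631094) had 7 peaks, with 10 in the other series list and 4 and 6 in the replicates. unc-60, the ADF/cofilin gene, had 6, with 6 and 2, and unc-87, a calponin-related gene, had 2, with 0 in each replicate.

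**Figure D3:**
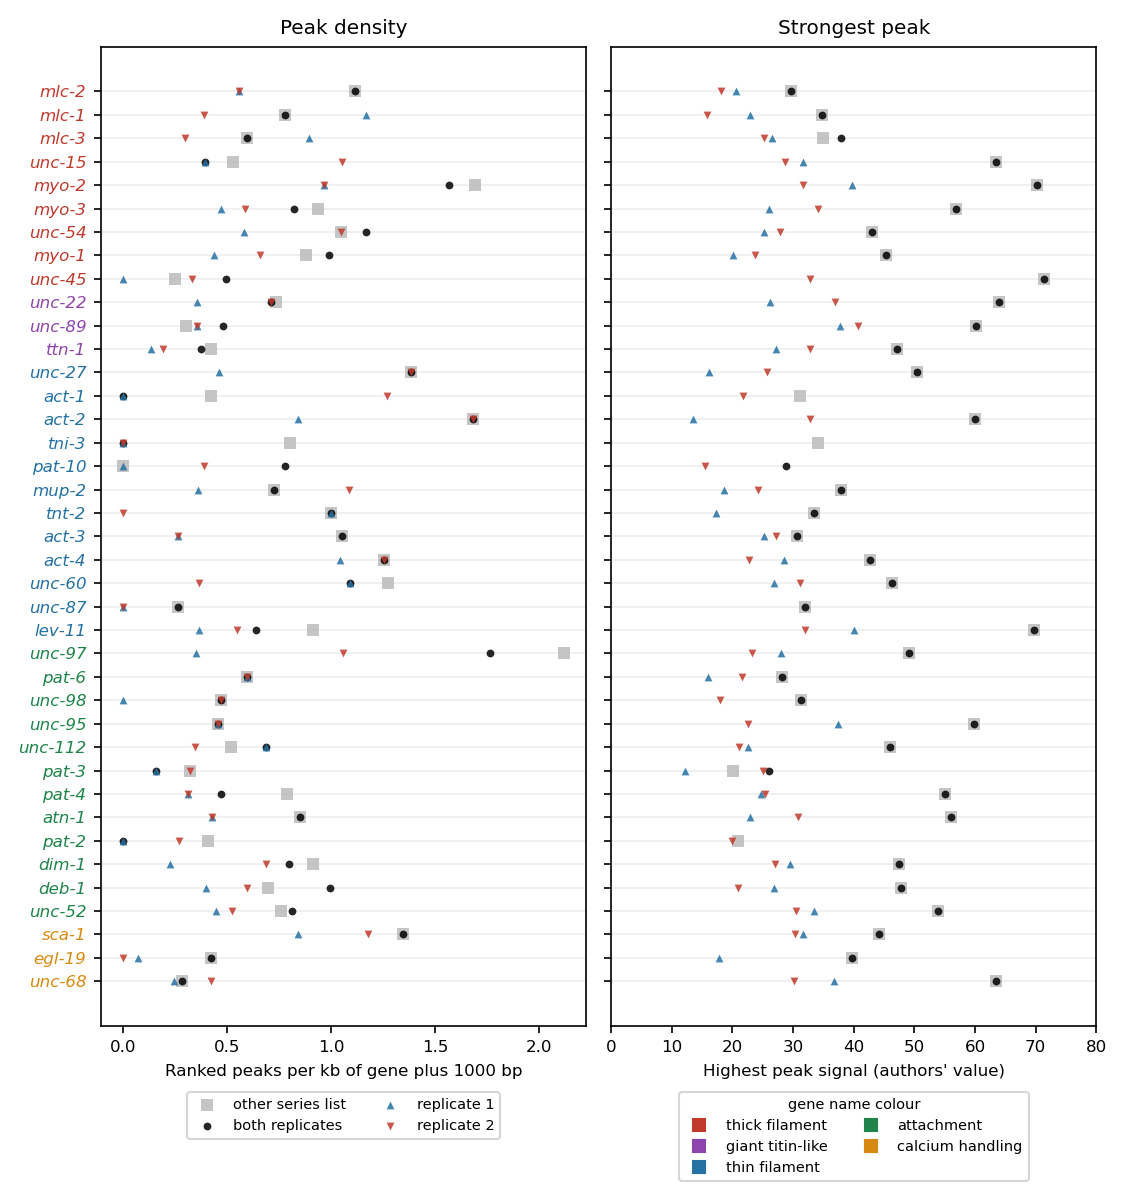
Ranked peaks per kb of gene plus 1000 bp upstream (left) and signal of the strongest peak (right, authors' value) for the 39 members, in the list of both replicates, the other series list, replicate 1 and replicate 2. Name colours give the role. Signals of the replicates' own lists run from 12.13 to 40.7 and cannot be set against the 25.9 to 71.3 of the list of both replicates. A member without a peak has no point on the right.

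Attachment genes had a peak in 11 of 12 cases (61.0% of all protein-coding genes), and 8 of 12 exceeded their like-length median (41.9%). unc-52 (II, 14647321 to 14684456), the perlecan gene, had 31 ranked peaks against a median of 12.5 over 48 genes of like length, more than any of those, with 29 in the other series list, 17 in replicate 1 and 20 in replicate 2. Its strongest peak (signal 53.9, IDR 26.97%) lay 954 bp upstream. The integrin genes had few peaks in the list of both replicates. pat-2 (III, 8818899 to 8825266), the integrin alpha subunit gene, had 0 peaks in the list of both replicates, 3 in the other series list (strongest signal 20.98), 0 in replicate 1 and 2 in replicate 2 (strongest signal 19.9). pat-3 (III, 3908931 to 3914149), the integrin beta subunit gene, had 1 peak, at the lowest score of the list (signal 25.9). Its summit lay 1079 bp upstream, just past the window that its edge reached. For pat-3 the other series list had 2 peaks (strongest signal 20.07), replicate 1 had 1 (12.13) and replicate 2 had 2 (24.99). Both subunit genes were thus below their like-length median of 2 in the list of both replicates. In the other series list both equalled theirs (3 for pat-2 and 2 for pat-3), and in replicate 2 pat-2 equalled its median of 2 and pat-3 was above its median of 1. Genes of proteins that bind the integrin tail or its partners varied: unc-112 (kindlin) had 4, pat-4 (integrin-linked kinase) 3, pat-6 (parvin) 2 and unc-97 (PINCH) 5.

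At unc-97 (X, 5593133 to 5594965) the 5 peaks were 5 times the like-length median of 1, the highest ratio by length alone among members whose like-length median was above 0. Against genes alike in both length and GC content the median was 2, and unc-45, with 6 peaks against 2, had a higher ratio. unc-97 had 6 in the other series list, 1 in replicate 1 (signal 27.97) and 3 in replicate 2 (strongest signal 23.3). The strongest (signal 49.1, IDR 36.96%) and the next in signal had summits 1216 and 1013 bp upstream, just past the window that their edges reached. Merged, the 5 peaks made 2 regions. deb-1 (vinculin) had 10, dim-1 (an immunoglobulin-domain protein) 7 and atn-1 (alpha-actinin) 6, and the atn-1 peak of highest signal (55.96, IDR 37.1%) lay 147 bp upstream. unc-95 and unc-98, genes of LIM-domain and zinc finger proteins of the attachment sites, had 2 each. The stronger unc-95 peak had a signal of 59.8 and an IDR of 17.6% in a coding exon, and both replicates had 2 peaks there.

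All 3 calcium handling genes had peaks (61.0% of all protein-coding genes), and 2 exceeded their like-length median (41.9%). sca-1 (III, 10811906 to 10816850), which encodes the calcium pump of the sarcoplasmic reticulum, had 8 against a like-length median of 2 (6 with GC content matched too), with 8 in the other series list, 5 in replicate 1 (strongest signal 31.6) and 7 in replicate 2 (strongest signal 30.3). Its strongest peak had a signal of 44.2 but stood at the lowest score, with an IDR of 86.04%. unc-68 (V, 6901681 to 6929038), the ryanodine receptor gene, had 8 peaks, under the median of 10 for 116 genes of like length. The other series list also had 8, replicate 1 had 7 (strongest signal 36.8) and replicate 2 had 12 (strongest signal 30.2), and the counts of both replicates were above their like-length medians of 5 and 6. egl-19 (IV, 7405582 to 7418740), the L-type calcium channel gene, had 6 against a median of 4, and the replicates had 1 and 0.

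Coding exons held most member summits. Of the 274, 153 lay in a coding exon of the member (55.8%, exact 95% interval 49.7 to 61.8%), 76 in an intron (27.7%, 22.5 to 33.4%), 26 upstream (9.49%, 6.29 to 13.6%), 4 in a UTR exon (1.46%) and 15 past the window or the gene end (5.47%). Intervals cover counting error only, and overlapping peaks are not independent. The coding share was 57.3% in replicate 1 and 56.5% in replicate 2. Coding exons made up 46.2% of the bases in the member windows and introns 40.7%. Per kb, members had 0.747 summits in coding exons, 0.421 in introns and 0.667 upstream. Over all protein-coding genes, the shares were 36.0% of summits in coding exons against 29.3% of bases, and the densities were 0.535, 0.318 and 0.326 per kb. There a peak counts once for each gene it was given to (36746 pairs of gene and peak). Summits past the window or gene end, 11.1% over all genes and 5.47% for members, count in the shares of summits and have no bases. Coding exons were denser in summits than introns in the members and over all genes, and densities in the members were higher in each of these 3 features, while in UTR exons they were lower (0.206 against 0.374 per kb). Summits in coding exons of members had a median GC content of 46.5% within 50 bp, and those in introns 38.1%. The part of GC content in this order was not tested.

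**Figure D4:**
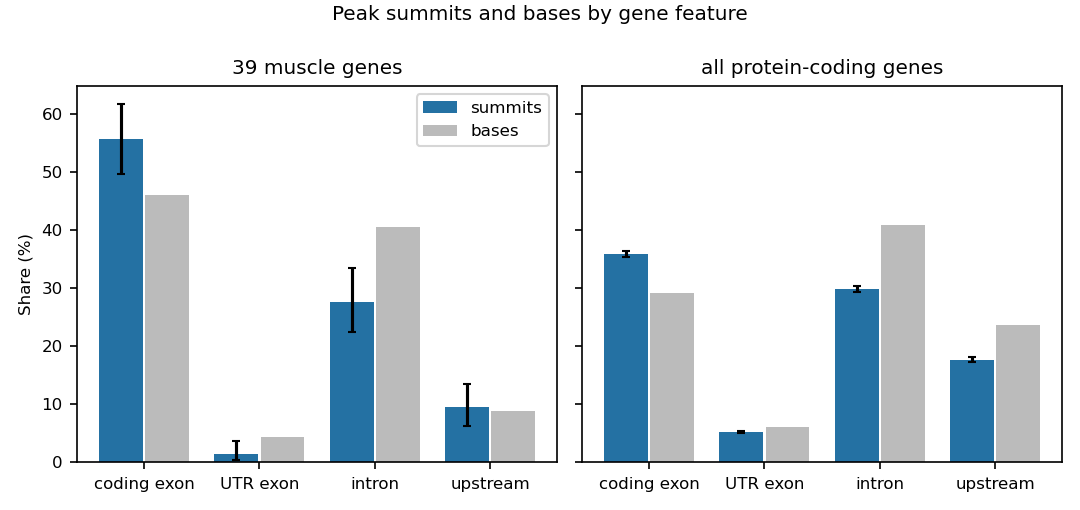
Share of summits (blue) and of bases (grey) by gene feature, in percent, for the 39 muscle genes (274 peaks) and for all protein-coding genes (36746 pairs of gene and peak). Summits past the window or gene end count in the total of summits but have no bar. Error bars are exact 95% intervals for counting error. Coding exons hold 55.8% of member summits and 46.2% of member bases, and 36.0% and 29.3% over all genes.

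The 5 members over 20 kb (unc-22, unc-52, unc-89, ttn-1 and unc-68) held 45.6% of the member peaks and 59.3% of the member length. Without them, 72 of 149 summits were in coding exons (48.3%, 40.1 to 56.6%) against 37.3% of bases. Summits upstream within 500 bp of the gene start numbered 19, at 13 members. The strongest peak of a member lay in a coding exon at 13 members, upstream at 10, past the window or gene end at 7, in an intron at 5 and in a UTR exon at 1. Those past an end were at unc-45, unc-97, act-2, myo-1, mlc-3, pat-3 and pat-4, and met the rule by their edges only. These counts of upstream summits and of strongest peaks were not made over all protein-coding genes. No difference from other genes can be read from them.

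Peaks recurred between the replicates at 26 of the 39 members (66.7%), counted as a replicate 1 peak that overlaps a replicate 2 peak, against 25.3% of all protein-coding genes. With summits within 100 bp of each other the count was 21 (53.8% against 17.4%). These counts also grow with the number of peaks a gene has. By peak, 87 of replicate 1's 150 member peaks overlapped one of replicate 2 (58.0%, exact 95% interval 49.7 to 66.0%) against 46.6% of all its nuclear peaks, and 92 of replicate 2's 207 overlapped one of replicate 1 (44.4%, 37.6 to 51.5%) against 38.2%. Of such replicate 1 peaks unc-89 had 11, unc-52 had 9, unc-22 had 7, myo-2 and ttn-1 had 6, and act-4 had 5. Across the 39 members, Spearman's rho of peaks per kb between the replicates was 0.342, as a description over genes. The 13 members with none were unc-45, unc-87, unc-98, act-1, tnt-2, tni-3, mup-2, pat-2, pat-3, pat-10, mlc-3, atn-1 and egl-19.

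By chromosome, 9 of the 10 members on X were above their like-length median, where 51.04% of all X genes were. On V it was 7 of 10 (40.5%), on I 5 of 8 (39.1%), on III 4 of 6 (41.97%), on IV 4 of 4 (36.7%) and on II 1 of 1 (43.8%). Against genes of like length on the same chromosome, an alternative added after seeing the data, 31 of 39 were above the median (41.8% of all genes).

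A second list, called other muscle genes, was chosen by name and counted the same way. Expression in muscle was not checked for these genes, so the list may hold genes that act outside muscle. Of 49 listed, 48 were found in the annotation and 43 had a ranked peak (89.6% against 61.0% of all genes). These genes are also long, with a median of 7510.5 bp against 2027 bp. More peaks than the like-length median were found at 33 (68.8% against 41.9% of all genes). The same count was 29 in replicate 1 (60.4% against 39%) and 28 in replicate 2 (58.3% against 40.4%). The highest signals were at unc-70, the beta-spectrin gene (15 peaks, signal 68.8, IDR 42.8%), let-2, a type IV collagen gene (11 peaks, signal 61.1, IDR 16.4%), and tln-1, the talin gene (11 peaks, signal 60.03, IDR 23.7%). No gene of the 48 had a peak past the authors' threshold in any list. A score of 540 or more was reached at 0 of the 48 in the list of both replicates (1.4% of all genes). The count was also 0 in the other series list (1.22%) and in replicate 1 (0.2%), and 1 in replicate 2 (0.35%).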

How the data were processed

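Peaks were called and ranked by the authors, and positions, scores and signal were used as deposited, in narrowPeak layout on the ce11 build per the labels. The caller, the IDR software and the control are not stated in the labels or files. The deposited signal is the caller's enrichment value. The deposited score is −log10 of the global IDR rescaled to at most 1000, which held within 1 unit for every ranked peak. The main ranked list is the one that holds all lines of the conservative thresholded list. In the 2 series lists, 16 columns that describe the lists compared were not used, because no label ties them to a replicate.

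Gene models of Ensembl release 115 and the RefSeq genome sequence, both WBcel235 (the assembly called ce11), were used. Coordinates are 1-based. Summit features were read from all transcripts of the member, coding exon before UTR exon before intron before upstream. Like-length genes exclude members. The members, the lists and the measures were chosen with earlier results of these data known. Counts and shares are descriptions with exact (Clopper-Pearson) 95% intervals, and no test was run, since the design has 1 group. Members with values in every list were those of highest signal, most or fewest peaks relative to like-length genes (a ratio, a reading chosen after the values were seen), the titin-like genes, the actins and mlc-1 and mlc-2, and other members are given by counts. Counting was tested on simulated peaks. Python 3.11.15, numpy 2.4.6, pandas 2.3.3, scipy 1.17.1 and matplotlib 3.10.9 were used.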

Additional observations from a re-analysis of the deposited data

How the results depend on the processing

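Alternatives changed the list, the peaks kept, the overlap rule, the window or the like-length rule. Of these alternatives, the rules on GC content and on chromosome were added after the values were seen. The members, the lists and the measures were themselves chosen with earlier results of these data known. With ranked peaks of score 540 or more, 3 members had a peak and 3 were above their like-length median, against 1.4% of all genes for each. The median per kb was then 0 and the median best signal 70.2. The 3 summits gave 66.7% in coding exons, 0% upstream and 0% in introns. The median of 0.725 peaks per kb became 0.366 with overlapping peaks merged and 0.588 with 2000 bp upstream, and 0.395 to 0.471 with 1 replicate left out (the other's own list). The median best signal over members, 46.8, became 46.1 in the other series list and 42.98 with summits required in the window. It was 42.98 in the gene body alone, 45.9 with 500 bp upstream and 47.2 with 2000 bp. With 1 replicate left out it was 25.7 to 26.1, but the scale of the signal is not given, so these lists cannot be compared by it. The share of summits upstream, 9.49%, became 16.7% with 2000 bp upstream and 2.55% when the window around transcript starts was taken first, by the construction of those windows. For the other changes the cause was not tested. The count of members above their like-length median ran from 23 of 39 (merged) to 34 of 39 (like length within 50%). The share over all genes moved with the rule too, at 31.4% and 43.6%. This range leaves out the score of 540 and the members up to 20 kb, of which 26 of 34 were above (41.9% of all genes). Without a replicate the count was 28 to 32 of 39 (39% and 40.4% of all genes). The thresholded lists gave 0 in each. No paired analysis was possible because the design has 1 group. Depth behind a peak is unknown, so absence from a list is not absence of binding.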
